A study of Mus musculus with 3 samples.

Results

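Cation-chloride cotransporters of the SLC12 family and the WNK, SPAK and OSR1 kinases that control them were followed in ribosome-bound RNA of mouse cortical cells marked by an Htr3a-Cre driver. Htr3a, a serotonin receptor subunit gene, marks a class of GABAergic interneurons in the cortex. The set was chosen by gene symbol and held 9 of the 32531 genes listed: the cotransporter genes Slc12a2, Slc12a4, Slc12a5 and Slc12a7, and the kinase genes Wnk1, Wnk2, Wnk3, Stk39 and Oxsr1. Adult mice carried the Cre driver Htr3a-Cre (NO176) and the reporter Rosa26-LSL-EGFP/Rpl10a, so that cells which had expressed Cre made the ribosomal protein Rpl10a fused to EGFP. Tagged polysomes were captured from homogenised whole cerebral cortex with antibodies against EGFP (the TRAP method), and their RNA was sequenced in 3 libraries of a single immunopurified group. No other genotype, treatment or unpurified tissue was analysed here, so genes were compared with each other inside each library. The tag stays in a cell after the driver has been active, and nothing in the labels ties the replicates to separate animals. The p-values thus reflect the spread of these samples alone, and that spread may be technical.

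Cation-chloride cotransporters move chloride across the plasma membrane together with potassium or with sodium and potassium. NKCC1, encoded by Slc12a2, brings chloride into the cell, whereas the potassium-chloride cotransporters KCC1, KCC2 and KCC4, encoded by Slc12a4, Slc12a5 and Slc12a7, carry it out. In neurons the balance between NKCC1 and KCC2 sets the chloride gradient and with it the response to GABA. The WNK kinases, named for an unusual place of the catalytic lysine, respond to chloride and cell volume and activate the related kinases SPAK (Stk39) and OSR1 (Oxsr1), which phosphorylate the cotransporters, stimulating NKCC1 and inhibiting the KCCs.

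Slc12a5 is transcribed from separate start sites, which give the KCC2a and KCC2b isoforms, and the deposited values are sums over the whole gene in which both are counted together. Sequence before both starts is shown because Slc12a5 was the highest member. That before a start of Slc12a7 is shown for a close relative near the detection limit, and that of Wnk3 for a kinase close to Stk39 in level. The 4 stretches are 230 bases long, run 5′ to 3′ on the plus strand and end 21 bases before a RefSeq start in GRCm38.p6. They lie at chr2:164960596-164960825, chr2:164967738-164967967, chr13:73763447-73763676 and chrX:151197828-151198057. Capitals mark the E-box CACGTG in the downstream Slc12a5 and the Slc12a7 stretches and a TATA box in that of Wnk3, and the upstream Slc12a5 stretch holds neither.
Slc12a5 upstream start: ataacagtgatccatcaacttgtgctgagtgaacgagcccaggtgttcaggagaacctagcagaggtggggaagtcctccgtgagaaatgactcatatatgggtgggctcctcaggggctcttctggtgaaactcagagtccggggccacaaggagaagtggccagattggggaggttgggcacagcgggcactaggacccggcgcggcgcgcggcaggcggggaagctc
Slc12a5 downstream start: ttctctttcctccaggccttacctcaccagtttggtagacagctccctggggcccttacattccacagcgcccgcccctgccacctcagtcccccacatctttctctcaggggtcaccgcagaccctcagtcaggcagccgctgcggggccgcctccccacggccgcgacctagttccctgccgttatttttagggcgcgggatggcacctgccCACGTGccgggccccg
Slc12a7: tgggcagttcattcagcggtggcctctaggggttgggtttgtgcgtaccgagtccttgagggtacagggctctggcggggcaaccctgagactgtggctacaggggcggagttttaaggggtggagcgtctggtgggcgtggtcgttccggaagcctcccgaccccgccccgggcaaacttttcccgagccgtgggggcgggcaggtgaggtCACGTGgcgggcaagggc
Wnk3: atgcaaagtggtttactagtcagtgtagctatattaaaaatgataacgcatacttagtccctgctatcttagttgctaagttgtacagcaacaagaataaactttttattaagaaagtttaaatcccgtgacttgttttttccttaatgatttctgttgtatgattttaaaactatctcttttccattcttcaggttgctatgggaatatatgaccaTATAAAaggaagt

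RefSeq windows of the 250 bases before a start were at hand for 8 of the 9 members, all but Slc12a2, and came to 10 windows. The 2 windows of Slc12a7 overlap each other. Motifs were searched on both strands. The E-box CACGTG, which reads alike on both, stood in 2 of the 10 windows, at position -36 before the downstream Slc12a5 start and at -38 before the Slc12a7 start shown, and in 6.02% of the 32851 windows of all genes. The TATA box TATAAA stood in 1 of the 10, at -33 before Wnk3, and in 12.4% of all windows. The GC box GGGCGG stood in 7 of the 10 and in 32.7% of all windows, and the EGR motif GCGNGGGCG in 0 of the 10 and in 4.70% of all. The members differed widely in base composition. The Wnk3 window had 30.4% G and C, above 1.61% of windows, and 2 CpG sites. The Stk39 window had 82.4% G and C, above 99.4% of windows, and 43 CpG sites. The windows before the upstream and downstream Slc12a5 starts had 61.2% and 67.2%, and the median of all windows was 52.4%. A match describes letters in a window and is not evidence of binding.

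Counts given to genes came to 13951332 to 14461053 a library. GABAergic markers had the highest levels, and markers of other cells were present. The summed level of 8 GABAergic markers was 4215, 4134 and 3902 TPM (the unit of level used here, counts divided by exon length and scaled to a fixed total) in replicates 1, 2 and 3, with a median of 182 ± 24.1 TPM (SD, n = 3, as throughout) and a range from Dlx6 at 10.7 to Gad2 at 2195 TPM. The 8 excitatory markers summed to 853, 940.2 and 1108 TPM, with a median of 88.3 ± 7.22 TPM, from Slc17a6 at 25.0 to Nrgn at 331 TPM. Their sum was highest in replicate 3, whereas their median was highest in replicate 1. Oligodendrocyte markers summed to 376, 256 and 223 TPM (median 22.1 ± 4.62), from Opalin at 0.245 to Cnp at 102 TPM, and the precursor list to 77.1, 61.8 and 55.5 TPM (median 9.03 ± 2.71), from Cspg4 at 1.21 to Olig1 at 24.3 TPM. Astrocyte markers summed to 78.7, 81.5 and 92.2 TPM (median 7.48 ± 1.06), from Gja1 at 1.95 to S100b at 29.3 TPM. Medians of the microglial, mural and meningeal lists were 2.41 ± 0.578, 1.86 ± 0.395 and 2.81 ± 0.141 TPM, with C1qa, Pdgfrb and Col1a2 lowest at 0.111, 0.797 and 0.521 and P2ry12, Rgs5 and Igf2 highest at 6.25, 19.3 and 9.66 TPM. For endothelial and for ependymal or choroid markers the medians were 0.636 ± 0.224 and 0.612 ± 0.367 TPM, with Cldn5 at 0.251 and Ly6c1 at 1.28 TPM in the first, and Folr1 at 0 counts in 3 of 3 libraries and Foxj1 at 4.41 TPM in the second.

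Transcripts of the chloride extruder KCC2 were by far the most abundant of the 4 cotransporters of the set, and those of the chloride loader NKCC1 were low. Protein and its phosphorylation were not measured. Slc12a5 (chromosome 2, 164960802 to 164999731 in GRCm38, plus strand) had 5599, 5299 and 5185 counts in replicates 1, 2 and 3, which gave 273, 253 and 241 TPM (256 ± 16.1). It ranked 694 of 23890 genes with a known length by mean TPM. The 3 libraries lay close together, with replicate 1 highest.

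Slc12a2 (chromosome 18, 57878678 to 57946821, plus strand) had 257, 314 and 164 counts, or 8.54, 10.2 and 5.20 TPM (7.99 ± 2.56), and ranked 9229. Replicate 3 was the lowest library and replicate 2 the highest. The TPM of Slc12a5 was 31.9, 24.7 and 46.4 times that of Slc12a2 in the 3 libraries (34.4 ± 11.01), so the groups of values did not overlap. On the scale of log2(TPM + 0.1) the difference of Slc12a5 minus Slc12a2 was 5.03 (SD 0.45; limma, adjusted p = 3.32e-35, and 0.0353 without moderation of the spread), in the same direction in 3 of 3 libraries. The same fit called 77.4% of all genes different from Slc12a2, and 61.6% of all genes were called higher. The median difference of all genes from Slc12a2 was 1.51.

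Transcripts of KCC1 and KCC4 were close to the detection limit. Slc12a4 (chromosome 8, 105943590 to 105966097, minus strand), which encodes the widely expressed KCC1, had 7, 16 and 4 counts, or 0.594, 1.33 and 0.324 TPM (0.749 ± 0.520). Slc12a7 (chromosome 13, 73733094 to 73816754, plus strand), which encodes KCC4, had 6, 11 and 6 counts, or 0.172, 0.309 and 0.164 TPM (0.215 ± 0.0813). Replicate 2 held the most counts of both genes. Exons of Gm16156 on the opposite strand overlapped 8.44% of the Slc12a4 exons.

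Exact Poisson 95% intervals, which cover counting error only, ran from 9.15 to 26.0 counts for Slc12a4 in replicate 2 and from 1.09 to 10.2 in replicate 3. For Slc12a7 they ran from 5.49 to 19.7 counts in replicate 2 and from 2.20 to 13.1 in the others, so its libraries were not distinguishable at this depth. Both genes fell short of the mean of 1 CPM (counts scaled to library size) that a gene needed to be tested, which the other 7 members passed. Slc12a2 exceeded Slc12a4 by 3.38 (SD 0.46; limma, adjusted p = 5.37e-09, and 0.0219 without moderation) and Slc12a7 by 4.66 (SD 0.33; limma, adjusted p = 2.54e-48, and 0.00314 without moderation) on the log2(TPM + 0.1) scale, which understates the change of such low genes. The same fits called 96% of all genes against Slc12a4 and 100% against Slc12a7, so these calls were nearly fixed in advance by the filter.

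**Figure D1:**
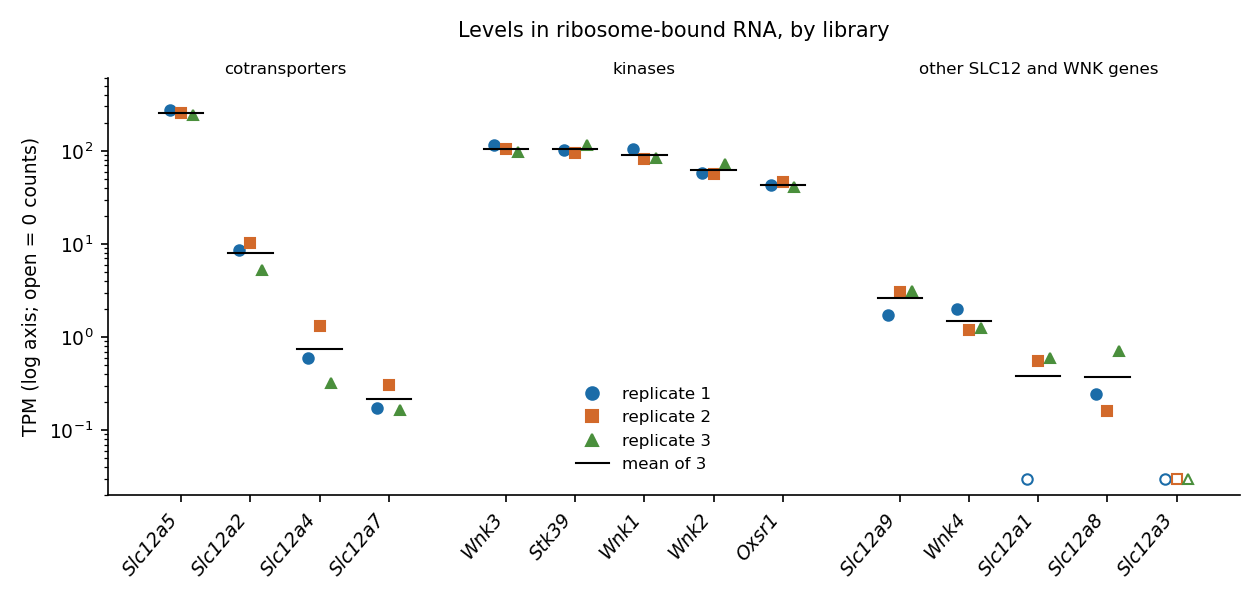
TPM on a log axis of the 4 cotransporter genes, the 5 kinase genes and 5 other SLC12 and WNK genes in each of the 3 libraries; points are libraries, lines are means, and open points are libraries with 0 counts. Slc12a5 at 256 TPM lies above every other gene shown, the 5 kinases lie between 43.4 and 106 TPM, and Slc12a4 and Slc12a7 lie below 1 TPM on average.

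Transcripts of the renal cotransporters were nearly absent. Slc12a3, which encodes NCC, was listed at 0 counts throughout; the limit set by 3 counts is 0.209, 0.215 and 0.207 CPM. Slc12a1, which encodes NKCC2, had 0, 9 and 10 counts. Replicate 1 therefore stood apart from the others for Slc12a1, with a Poisson upper limit of 3.69 counts against lower limits of 4.12 and 4.80. Slc12a8 had 3, 2 and 9 counts. Slc12a9 stood at 1.73, 3.04 and 3.10 TPM (2.63 ± 0.774).

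Of the summed TPM of the 4 cotransporter genes of the set, Slc12a5 made up 96.7%, 95.5% and 97.7% in replicates 1, 2 and 3 (96.6% ± 1.09). Slc12a2 made up 3.03%, 3.86% and 2.11% (2.998% ± 0.877), with replicate 3 lowest. The shares of Slc12a4 and Slc12a7 were 0.281% ± 0.195 and 0.0813% ± 0.0307.

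Transcripts of all 5 kinases of the set were present at levels between those of KCC2 and NKCC1. Wnk3, which encodes a chloride-sensitive WNK kinase of neurons (chromosome X, 151198078 to 151320152, plus strand), had 3361, 3096 and 3005 counts, or 115, 104 and 98.3 TPM (106 ± 8.61). Stk39 (chromosome 2, 68210445 to 68472268, minus strand), which encodes SPAK, had 1403, 1326 and 1662 counts, or 103, 95.1 and 116 TPM (105 ± 10.6). The values of these genes overlapped, with Wnk3 highest in replicate 1 and Stk39 in replicate 3. Exons of A230072E10Rik on the opposite strand overlapped 4.94% of the Wnk3 exons.

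Wnk1 (chromosome 6, 119923969 to 120038672, minus strand), the most widely expressed WNK kinase, had 6648, 5223 and 5558 counts, more than any other kinase. Its merged exons cover 22825 nt, against 11330 nt in its longest transcript, so after the length correction it stood at 106, 81.3 and 84.3 TPM (90.4 ± 13.3). With the longest transcript as length it stood at 138 TPM. Replicate 1 lay above the other libraries.

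Wnk2 (chromosome 13, 49036303 to 49148014, minus strand), a WNK kinase abundant in brain, had 1351, 1344 and 1757 counts, or 57.8, 56.3 and 71.7 TPM (61.9 ± 8.50). Replicate 3 was the high one. Wnk4, known best from the kidney and no member of the set, had 23, 14 and 15 counts, or 1.49 ± 0.455 TPM. Of the summed TPM of the 4 WNK genes, Wnk3 made up 40.8% ± 2.19, Wnk1 34.7% ± 2.56, Wnk2 24.0% ± 3.79 and Wnk4 0.567% ± 0.130. These shares rest on merged exon lengths. With the longest transcript as length, Wnk1 at 138 TPM lay above Wnk3 at 99.3 and Wnk2 at 57.7 TPM.

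Oxsr1 (chromosome 9, 119238432 to 119322427, minus strand), which encodes OSR1, had 633, 697 and 632 counts, or 42.9, 46.3 and 40.9 TPM (43.4 ± 2.73). It was the lowest of the kinases and lay below Stk39 in 3 of 3 libraries. SPAK transcripts were 2.39, 2.05 and 2.84 times those of OSR1 per length. On the log2 scale Stk39 exceeded Oxsr1 by 1.27 (SD 0.23), which passed the test (limma, adjusted p = 0.000699; unmoderated, 0.0218). The fit against Oxsr1 called 85.1% of all genes. Stk39 thus made up 70.6% ± 3.35 of the summed TPM of the pair.

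The order of the members by mean TPM with merged exon lengths was Slc12a5, Wnk3, Stk39, Wnk1, Wnk2, Oxsr1, Slc12a2, Slc12a4 and Slc12a7. Slc12a5 stood above the 5 kinases, of which 5 of 5 were called lower, against 92% of all genes. The median difference of the kinases from Slc12a5 was -1.51, beside -3.52 for all genes. Against Wnk1 itself the difference was 1.51 (SD 0.13; limma, adjusted p = 0.000386, and 0.0111 without moderation). It turned to -0.11 with CPM, which has no length correction. The fit against Wnk1 called 87.4% of all genes. Wnk3 lay below Slc12a5 by log2 differences of 1.24, 1.28 and 1.29 in the 3 libraries (SD 0.03; limma, adjusted p = 0.000458, and 0.00478 without moderation), a ratio that barely varied. It was the closest kinase with merged exon lengths, whereas with the longest transcript as length Wnk1 was closer (0.80, against 1.27 for Wnk3). Against Wnk3 the fit called 90.2% of all genes.

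The 3 kinases next in order could not be ranked with merged exon lengths, and other lengths changed their order. Wnk3 minus Stk39 was 0.02 (SD 0.22; limma, adjusted p = 0.933) and Wnk1 minus Stk39 was -0.22 (SD 0.25; limma, adjusted p = 0.305), each in the direction of its mean in 2 of 3 libraries. With CPM, Wnk3 minus Stk39 was 1.11 and passed (limma, adjusted p = 0.000391), and with the longest transcript as length it was -0.16 (limma, adjusted p = 0.429). Wnk1 minus Wnk3 was -0.23 (SD 0.12; limma, adjusted p = 0.130), negative in 3 of 3. The direction of the last turned to 0.47 with the longest transcript as length (limma, adjusted p = 0.0186) and to 0.87 with CPM (limma, adjusted p = 0.00180), so the order of Wnk1 and Wnk3 rests on the exons counted as length. Fits against Stk39 called 89.7% of all genes.

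Wnk2 lay below these 3 kinases. Its log2 difference from Wnk3 was -0.78 (SD 0.29; limma, adjusted p = 0.00871, and 0.0499 without moderation), a call that was lost without replicate 2 (-0.72; limma, adjusted p = 0.0666). From Stk39 it was -0.76 (SD 0.07; limma, adjusted p = 0.00315), which turned to 0.015 with CPM. Wnk1 exceeded Wnk2 by 0.54 (SD 0.32; limma, adjusted p = 0.0306), with differences of 0.87, 0.53 and 0.23 in replicates 1, 2 and 3. This call, beside 86.3% of all genes called against Wnk2, was lost without moderation (adjusted p = 0.114, limma), without replicate 1 (0.38; limma, adjusted p = 0.234) and without replicate 2 (0.55; limma, adjusted p = 0.154). The difference was larger with CPM (1.97; limma, adjusted p = 6.97e-08) and with the longest transcript as length (1.26; limma, adjusted p = 4.66e-05). Wnk2 exceeded Oxsr1 by 0.51 (SD 0.27; limma, adjusted p = 0.0320), and this call was lost without moderation (adjusted p = 0.1005, limma) and without each replicate in turn (0.36 to 0.62; limma, adjusted p = 0.0580 to 0.164). It held with CPM (1.17; limma, adjusted p = 0.00104) and with the longest transcript as length (0.60; limma, adjusted p = 0.0176). A wide step followed: Slc12a2 minus Oxsr1 was -2.48 (SD 0.42; limma, adjusted p = 0.000128, and 0.0197 without moderation). All 5 kinases stood above Slc12a2.

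Among the 36 pairs of members, 25 could be tested and 22 passed the threshold of 0.05, or 20 without moderation (limma). In the 11 others the gene tested against the anchor was Slc12a4 or Slc12a7. The pairs tested include Slc12a5 and Slc12a2 against Slc12a4 and Slc12a7 as anchors. These anchors fell short of the filter that every tested gene passed, so such calls were nearly fixed in advance. Slc12a4 and Slc12a7 themselves differed by 1.35, 1.81 and 0.68, with Slc12a4 higher in 3 of 3 libraries. With no filter on low counts, the difference did not pass (limma, adjusted p = 0.0709). Shares of all genes called in the same fits ran from 77.4% against Slc12a2 to 100% against Slc12a7. Without moderation they were 42.6% against Slc12a2, 97.1% against Slc12a7, 82.5% against Slc12a4, 78.2% against Wnk1, 74.2% against Wnk2, 84.5% against Wnk3, 83.3% against Stk39 and 73.5% against Oxsr1. The share of member pairs called is near this background.

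**Figure D2:**
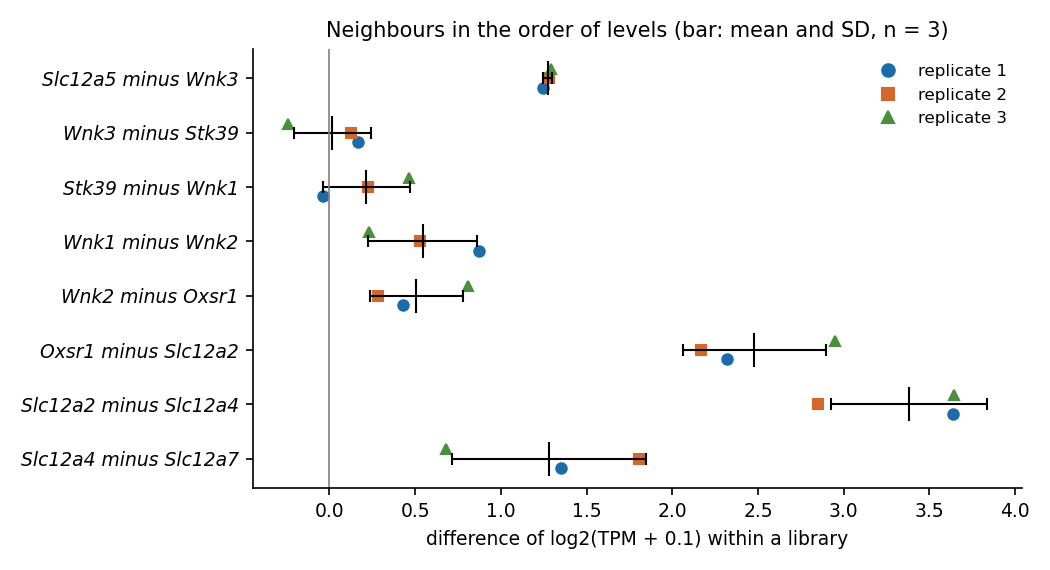
Differences of log2(TPM + 0.1) between neighbours in the order of mean levels, with 1 point per library and a bar for the mean and SD (n = 3). Slc12a5 minus Wnk3 varies least (SD 0.03), the points of Wnk3 minus Stk39 and of Stk39 minus Wnk1 lie on both sides of 0, and the widest steps are those on either side of Slc12a2.

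Levels also differed between libraries, by more than counting noise for 6 of the 7 members tested. Slc12a2 varied most, at 17.9, 22.5 and 11.3 CPM, a 1.98-fold range (chi-square test on edgeR's TMM-scaled library sizes, adjusted p = 1.10e-11). Slc12a5 spanned a 1.09-fold range (adjusted p = 3.66e-14, same test) and Wnk1 a 1.23-fold range (adjusted p = 5.11e-64, same test). Oxsr1 spanned a 1.14-fold range and did not pass (adjusted p = 0.0602, same test). The ranges are of CPM on unscaled totals, whereas the test used scaled sizes; on unscaled totals the adjusted p of Slc12a5 was 0.000162 (chi-square test). The same test called 74.3% of all 12949 genes, so 6 of 7 is near the background.

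Wnk1 was high in replicate 1, and its call was lost without it (adjusted p = 0.322, chi-square test). Slc12a2 was low and Wnk2 high in replicate 3, and without it their adjusted p-values were 0.0909 and 0.335 (chi-square test). Oxsr1 passed without replicate 1 (adjusted p = 0.0333, chi-square test) and with unscaled library totals (adjusted p = 0.0302, chi-square test). Coefficients of variation between libraries were taken as square roots of edgeR's dispersions. They were 0.135 for Slc12a5, 0.140 for Wnk3, 0.148 for Stk39, 0.149 for Wnk1, 0.153 for Wnk2, 0.165 for Oxsr1 and 0.258 for Slc12a2, beside a median of 0.224 over all genes tested. The value of Slc12a5 lay above that of 2.18% of all genes and the value of Slc12a2 above that of 62.0%. edgeR draws each dispersion toward that of genes of like level, so these values and ranks depend on level as well as spread. They are not the raw spread, which for Slc12a5 was an SD of 15.7 around a mean of 376 CPM. Without replicate 1 the coefficients were lower, 0.0885 for Slc12a5, 0.0885 for Wnk1 and 0.166 for Slc12a2.

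Marker levels moved between the libraries as well. Excitatory markers stood at 88.2%, 97.2% and 115% of their mean over replicates 1, 2 and 3, Wnk2 at 93.3%, 90.9% and 116% and Stk39 at 98.2%, 90.9% and 111%. The excitatory sum was made up most of Nrgn and Slc17a7, and the median of that list was highest in replicate 1, at 96.6, 84.8 and 83.4 TPM. Microglial markers, at 113%, 68.2% and 118%, and meningeal markers, with sums of 22.5, 21.9 and 23.4 TPM, had the order of Wnk2 and Stk39, although P2ry12 was highest in replicate 1. Oligodendrocyte markers stood at 132%, 89.7% and 78.3% and endothelial markers at 138%, 81.5% and 80.5%, beside 117%, 89.9% and 93.2% for Wnk1. GABAergic and precursor markers were also highest in replicate 1. The ependymal or choroid markers, with sums of 8.01, 7.58 and 7.81 TPM, had the order of Wnk1. These are sums, and single genes differed: Cnp went from 136 to 93.2 and 78.1 TPM while Mbp stayed at 37.5, 37.1 and 37.3 TPM, and Slco1a4 had 44, 4 and 7 counts where Pecam1 had 3, 16 and 31 (genes chosen after their values were seen). Slc12a2 stood at 107%, 128% and 65.1%, an order that the sum of none of the 10 marker lists had. The median of the meningeal list had it, at 2.78, 2.97 and 2.69 TPM, as did single genes such as Olig1 and Mobp, though not Mbp. GABAergic markers stayed within 95.6% to 103%. The part of other cells in the members' values was not tested, and in such bulk samples fewer cells of a type and less RNA per cell cannot be told apart.

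**Figure D3:**
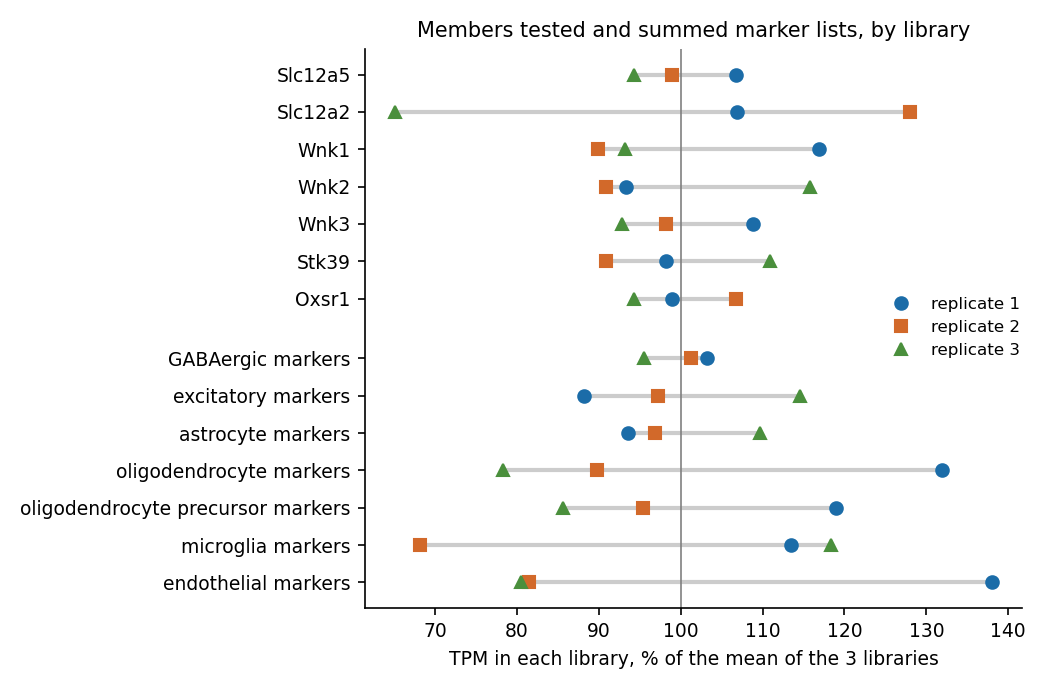
TPM of the 7 members tested and summed TPM of 7 marker lists in each library, as a percentage of the mean of the 3 libraries; grey bars join the lowest and highest library. Slc12a2 spans 65.1% to 128%. Wnk2 and Stk39 are highest in replicate 3, as are the excitatory, astrocyte and microglial sums, though not the excitatory median. Wnk1 is highest in replicate 1, as are the GABAergic, oligodendrocyte, precursor and endothelial sums.

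Genes known to act with the kinases were widely present. In a list of 12 partners of the WNK pathway, 12 of 12 reached 1 TPM in 3 of 3 libraries, with a median of 89.5 ± 13.3 TPM. Of all 23890 genes with a known length, 12158 did so. Cul3, the cullin whose complex with Klhl3 marks WNK kinases for degradation, led at 268 ± 11.6 TPM and did not differ from Slc12a5 beyond the threshold (log2 difference 0.07; limma, adjusted p = 0.579). Klhl3, the adaptor of that complex, was the lowest of the list at 2.05 ± 0.363 TPM.

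Nedd4l, a ubiquitin ligase, stood at 170.5 ± 13.2 TPM and Lrrc8a, an essential subunit of the volume-regulated anion channel, at 154 ± 22.8 TPM. Against Slc12a5, 11 of the 12 were called lower and 0 higher, beside 92% and 3.66% of all genes. In mean CPM, which has no length correction, Nedd4l at 594 lay above Slc12a5 at 376. Against Slc12a2, 11 of 12 were called higher and 1 lower, beside 61.6% and 15.8%. Without moderation the latter counts were 9 and 1 (limma), beside 38.9% and 3.72%.

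Regulators and partners of KCC2 included genes above Slc12a5 itself. In this list of 12, the brain creatine kinase Ckb, which binds KCC2, led at 471.8 ± 87.8 TPM, followed by the cytoskeletal protein 4.1N gene Epb41l1, listed under its older symbol, at 402 ± 45.6 TPM and the endocytic protein gene Pacsin1 at 187 ± 21.6 TPM. The kinase C gene Prkcd was the lowest at 1.82 ± 1.43 TPM, with 16, 54 and 15 counts and replicate 2 the high one. Against Slc12a5, 2 of 12 were called higher and 10 lower, beside 3.66% and 92% of all genes. Without moderation 1 was called higher and 9 lower (limma), beside 3.39% and 90.2% of all genes and 93.6% in either direction, against 95.7% with moderation. Against Slc12a2, 8 of 12 were called higher and 2 lower, beside 61.6% and 15.8% of all genes, or 7 and 1 without moderation (limma), beside 38.9% and 3.72%. Epb41l1 was 1.57-fold above Slc12a5 (limma, adjusted p = 0.00435, and 0.00794 without moderation) and Ckb 1.83-fold (limma, adjusted p = 0.00865, and 0.0597 without moderation). In mean CPM, which has no length correction, Ckb at 271 lay below Slc12a5 at 376. Epb41l1 at 915 stayed above it, and Ntrk2 at 578 lay above it as well. The median of the list was 49.9 ± 1.17 TPM.

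Other transporters and channels for chloride or bicarbonate, 14 genes in all, had a median of 17.5 ± 2.34 TPM. They were led by Slc4a10, a sodium-dependent bicarbonate transporter of neurons, at 153 ± 12.1 TPM, the carbonic anhydrase gene Car2 at 135 ± 28.6 TPM and the sodium-dependent chloride-bicarbonate exchanger gene Slc4a8 at 105 ± 20.9 TPM. Slc4a2, an anion exchanger, was lowest at 1.62 ± 0.736 TPM. Against Slc12a5, 14 of 14 were called lower, beside 92% of all genes. Against Slc12a2, 7 of 14 were called higher and 3 lower, beside 61.6% and 15.8% of all genes. Without moderation these counts were 6 and 0 (limma), beside 38.9% and 3.72%. Slc12a5 was 1.67-fold above Slc4a10 (limma, adjusted p = 0.00247).

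**Figure D4:**
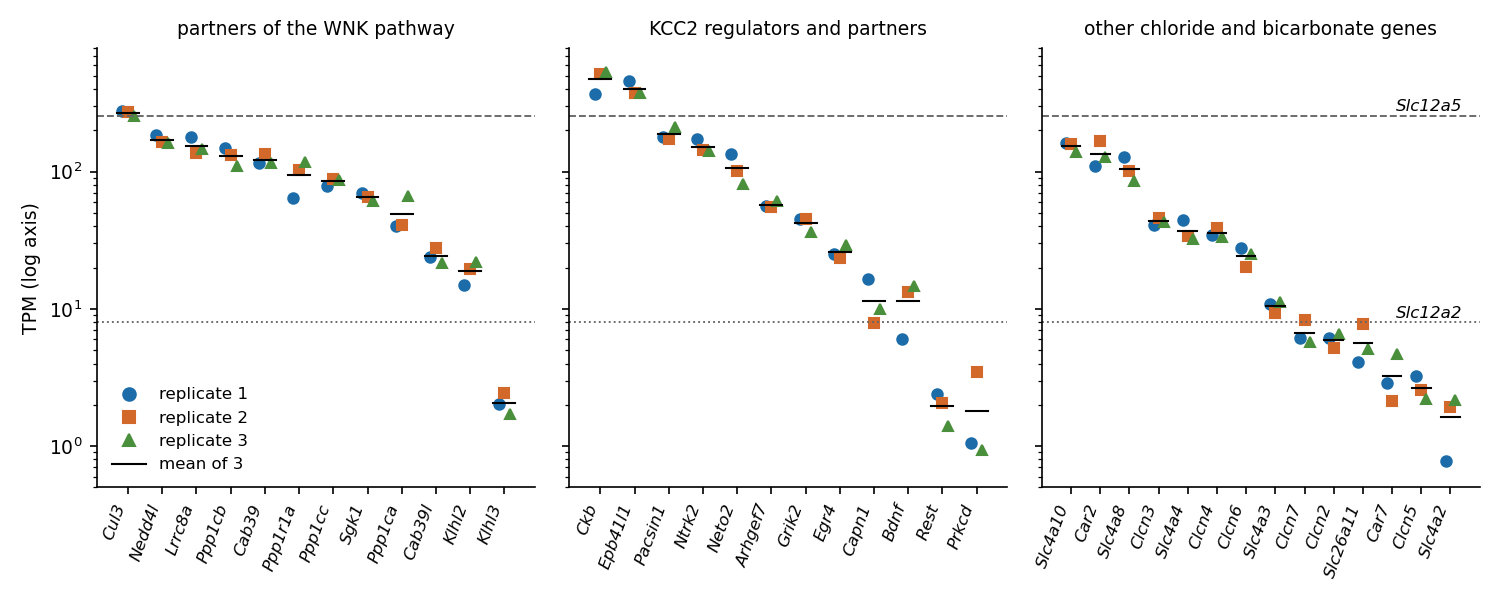
TPM on a log axis of 12 partners of the WNK pathway, 12 regulators and partners of KCC2 and 14 other chloride and bicarbonate genes in each library; points are libraries, short lines are means, and horizontal lines mark the means of Slc12a5 (256 TPM, dashed) and Slc12a2 (7.99 TPM, dotted). Ckb and Epb41l1 lie above the Slc12a5 line, Cul3 lies at it, and the third list lies below it throughout.

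Among 20416 other protein-coding genes with a known length, those with the smallest distance to Slc12a5 over the 3 values of log2(TPM + 0.1) were Smarca2, a chromatin remodelling ATPase, at 272, 253 and 239 TPM (distance 0.0118), Inpp5f at 277, 248 and 238 TPM (0.0370) and the tubulin gene Tuba4a at 270.1, 251 and 235 TPM (0.0397). Those nearest Slc12a2 were Pigz at 7.997, 10.6 and 5.59 TPM (0.149), Ogfod3 at 8.05, 9.24 and 5.29 TPM (0.169) and Nkain3 at 8.73, 8.96 and 5.04 TPM (0.196). With 3 libraries, such likeness describes a level and its small shifts.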

How the data were processed

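Ribosome-bound RNA was measured in 3 immunopurified libraries. The values deposited by the authors are raw read counts per gene symbol. The submitters' processing notes name STAR 2.0.0e, HTSeq and mm10 but not what each was used for. Annotation, counting mode and strand setting were not given in the sources used here. Reads of overlapping genes and of isoforms cannot be told apart. Lines naming no gene stayed out. Records without a feature were 11.8%, 10.95% and 13.1% of all records in replicates 1, 2 and 3, and records with no unique alignment 11.2%, 11.3% and 13.1%.

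TPM was computed from the deposited counts and merged exon lengths of GENCODE M21 (GRCm38). Of the symbols, 23155 matched directly, 735 matched through older names, and 8641 were left without a length. Within each library, log2(TPM + 0.1) of every gene with a length and a mean of at least 1 CPM (12455 genes) was set against that of a member, the anchor. limma 3.58.1 tested the differences, two-sided, with Benjamini-Hochberg adjustment over all genes tested with that anchor and a threshold of 0.05. An anchor's 3 values enter every difference of its fit, so the spread pooled over genes makes moderated p-values too small, and unmoderated ones are given beside the main results. An exact sign-flip test of 3 libraries cannot go below p = 0.25. For a pair, the member later in the order Slc12a5, Slc12a2, Slc12a7, Slc12a4, Wnk1, Wnk2, Wnk3, Stk39, Oxsr1 was the anchor. Lists were set against Slc12a5 and Slc12a2 as anchors.

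Variation between libraries was tested by a chi-square test of counts against TMM-scaled library sizes (edgeR 4.0.16), adjusted over 12949 genes, with dispersions from an intercept-only fit and DESeq2 1.42.0 as an alternative. Floors are 3 counts. Promoter windows are those of RefSeq (GRCm38.p6). Software was R 4.3.3 and Python 3.11.15.

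Members and lists were chosen with earlier results of these data known. Named are all members, the other SLC12 and WNK genes of the list except an item that is not reported here, the 3 highest and the lowest of each pathway list, the highest and lowest of each marker list and the 3 protein-coding genes nearest to Slc12a5 and to Slc12a2. The alternatives were CPM, the longest transcript as length, a pseudocount of 1, no moderation, no filter, other scalings and leaving out each replicate.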

Additional observations from a re-analysis of the deposited data

How the results depend on the processing

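The difference of Slc12a5 minus Slc12a2 (4.49 to 5.24) and that of Stk39 minus Oxsr1 (1.15 to 1.55) kept direction and call under every alternative run. The log2 difference of Wnk1 minus Wnk2 lost its call without moderation (0.54) and with no filter on low counts (0.54), and ran from 0.38 to 0.70 when each replicate was left out. It rose to 1.97 without the length correction and to 1.26 with the longest transcript as length, and was called in both. Of the 25 pairs, 19 to 23 were called under the alternatives. Without the length correction, Slc12a5 minus Wnk1 turned to -0.11, Wnk1 minus Wnk3 to 0.87, Wnk1 minus Stk39 to 1.99 and Wnk2 minus Stk39 to 0.015, and Wnk3 minus Stk39 became a called difference of 1.11. With the longest transcript as length, Wnk1 minus Wnk3 turned to 0.47, Wnk1 minus Stk39 to 0.31 and Wnk3 minus Stk39 to -0.16. Only the assumed lengths differ in these alternatives. Leaving out a replicate gave Wnk3 minus Stk39 from -0.057 to 0.15. The median coefficient of variation of the 7 members tested, 0.149, ran from 0.0973 without replicate 1 to 0.200 without replicate 2; the cause was not tested. Between 4 and 7 members varied beyond counting noise under the alternatives, and Slc12a4, tested only with no filter, passed there (chi-square test, adjusted p = 0.0226). Depth limits Slc12a4, Slc12a7 and Slc12a1, with at most 16 counts a library.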
